A study of Mus musculus with 20 samples.

Results

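Vim and Cdh2, a pair of genes typical of mesenchymal cells, differed more than 5-fold between pluripotent mouse stem cell lines that carried nearly the same amount of Cdh1, the adhesion gene typical of epithelial cells. The differences ran between single lines and did not separate the quality grades. The genes described here are 10 of the 27161 genes tested: the epithelial markers Cdh1 and Epcam, the mesenchymal markers Cdh2, Vim and Fn1, and the transcription factors Snai1, Snai2, Zeb1, Zeb2 and Twist1. They were chosen by name, as the probes that the array's own annotation assigns to these symbols. Where a gene had several probes, the brightest was used.

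The study graded induced pluripotent stem cell lines of the mouse (iPSC lines) and set them beside embryonic stem cell (ESC) lines. RNA of 10 lines was measured on 20 one-colour Agilent arrays, 2 arrays per line. Nanog-GFP OSKM#2, then Oct4-GFP OSKM#2, then KH2_OSKM were graded poor, BC_2 OSKM and Nanog-GFP SNEL#3 good, and Nanog-GFP SNEL#2 and Oct4-GFP SNEL#1 high. Controls were KH2 ESCs, followed by Nanog-GFP ESCs and by Oct4-GFP ESCs. OSKM stands for reprogramming with Oct4, Sox2, Klf4 and Myc, and SNEL for reprogramming with Sall4, Nanog, Esrrb and Lin28. All groups were untreated, and all were kept in 2i medium, which holds cells in a naive state with 2 kinase inhibitors, with no feeder cells. Each iPSC line is 1 line, the poor lines are all OSKM lines and the high lines are all SNEL lines, so grade and factors are partly confounded. All arrays of poor and good lines were on slides 1 and 2, and slide 3 held only arrays of ESC lines and Oct4-GFP SNEL#1. Grade and slide are therefore partly confounded too. The labels do not say whether both arrays of a line stem from independent cultures. The line was therefore the unit of replication, and p-values measure the spread between these lines. All 18 pluripotency markers examined were above background in every line.

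Epithelial-mesenchymal transition is the programme by which cells joined by E-cadherin (Cdh1) lose these contacts and take up N-cadherin (Cdh2), vimentin (Vim) and a fibronectin (Fn1) matrix. The Snail, Zeb and Twist factors drive it, in part by binding the E-box CACCTG in promoters such as that of Cdh1. The reverse passage occurs early when fibroblasts are reprogrammed, and naive pluripotent cells grow as compact epithelial colonies.

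RefSeq promoter sequences of GRCm38.p6 were at hand for 5 of the 10 genes, and the E-box CACCTG was looked for on both strands (as CACCTG or CAGGTG) in the 250 bases before each start. Epcam held 2 copies, whose first bases were at -187 and -19 from the start, and Snai1 held 1, at -126. Vim, Twist1 and the 4 starts listed for Zeb2 held none. Of all 32851 promoters in the table, 17.2% held at least 1 copy and 2.06% held at least 2. These 3 promoters are shown because Epcam varied against Snai2 and Zeb1 across the lines, because Snai1 is itself one of the factors, and because Vim varied most widely among the genes measured on every array. Capitals mark the E-box, and a match describes letters, not binding. Epcam lies at chr17:87635729-87635978 (plus strand), Snai1 at chr2:167537945-167538194 (plus strand) and Vim at chr2:13574061-13574310 (plus strand).
Epcam: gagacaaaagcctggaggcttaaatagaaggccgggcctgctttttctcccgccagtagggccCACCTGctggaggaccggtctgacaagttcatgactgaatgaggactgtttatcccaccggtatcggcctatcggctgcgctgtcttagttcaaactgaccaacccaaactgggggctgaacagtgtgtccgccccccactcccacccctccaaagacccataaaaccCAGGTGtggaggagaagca
Snai1: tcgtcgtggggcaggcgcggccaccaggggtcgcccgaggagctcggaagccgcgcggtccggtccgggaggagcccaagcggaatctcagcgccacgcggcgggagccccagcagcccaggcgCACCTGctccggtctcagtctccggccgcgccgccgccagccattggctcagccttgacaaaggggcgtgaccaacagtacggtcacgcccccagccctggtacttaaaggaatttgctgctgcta
Vim: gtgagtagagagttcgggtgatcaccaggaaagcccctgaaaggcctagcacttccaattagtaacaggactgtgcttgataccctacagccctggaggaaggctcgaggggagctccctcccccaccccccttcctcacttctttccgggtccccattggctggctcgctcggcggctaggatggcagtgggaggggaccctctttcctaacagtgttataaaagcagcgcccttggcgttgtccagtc

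A level is given as log2 of a probe's signal over the 75th percentile of its array, averaged over both arrays of the line. A level of 0 means that the probe was as bright as that percentile. Because probes differ in brightness, levels of different genes were not set against each other. The signal is an average over the cells of a culture, so fewer cells of a type and less RNA per cell cannot be told apart. Of the 10 genes, 8 were well above background on all 20 arrays, Twist1 on 17 and Zeb2 on 10. As a mean of both arrays, the share of probes well above background was 50.1% to 58.8% in the 3 SNEL lines. In the other lines it was 61.2% to 67.7%, which bears on the dim genes Twist1 and Zeb2. Single arrays overlapped, with 49.5% and 68.0% for Oct4-GFP SNEL#1 and 77.2% and 58.3% for KH2_OSKM.

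**Figure D1:**
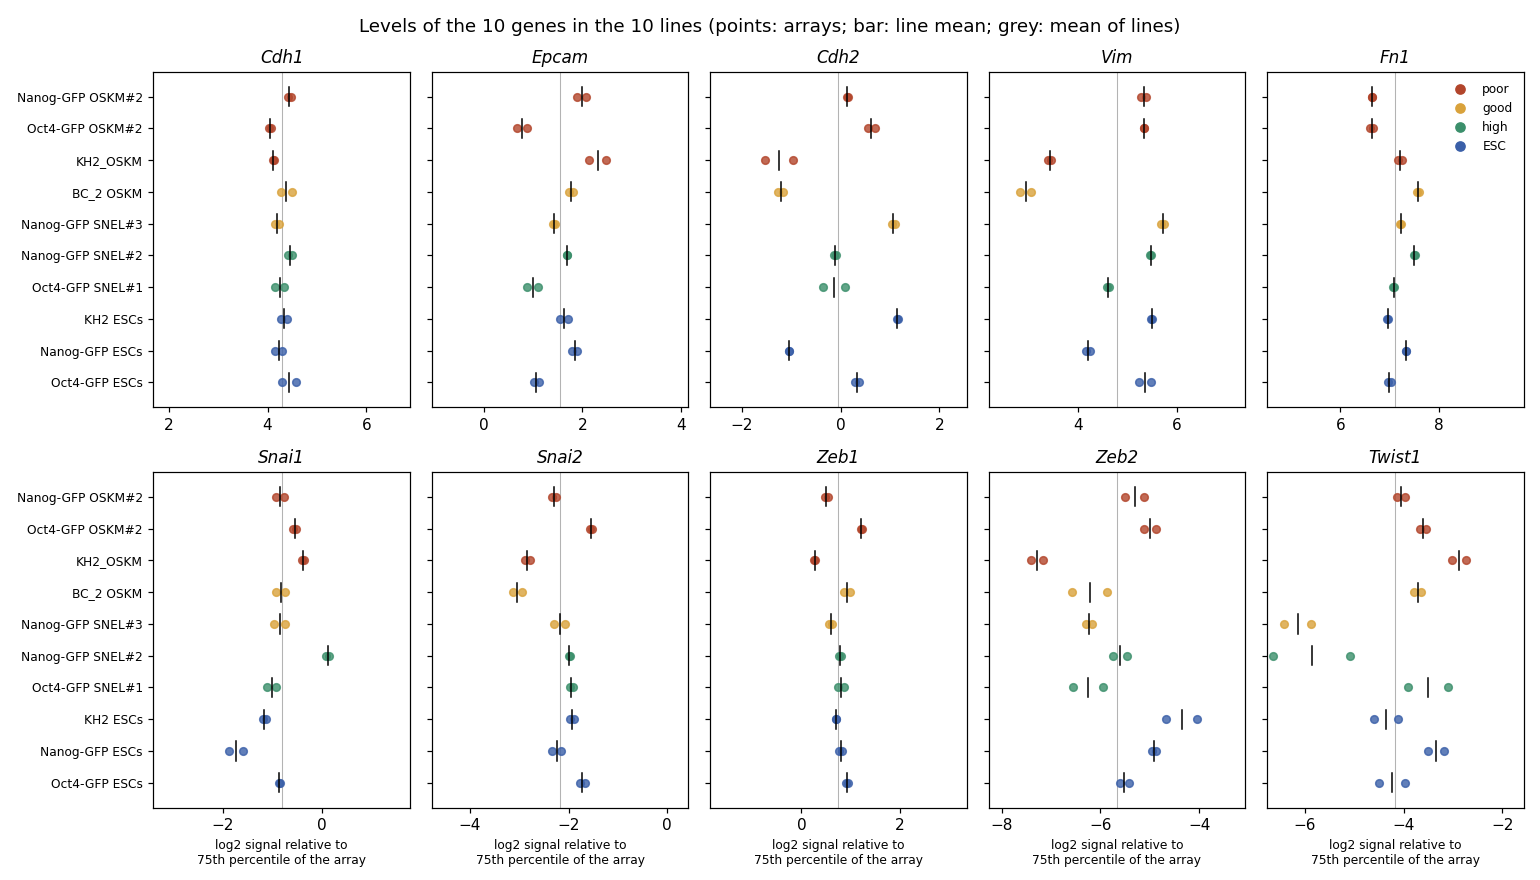
Level of each of the 10 genes in each line, on the horizontal axis in log2 units against the array's 75th percentile. Points are the 2 arrays of a line, coloured by grade, black bars are line means and the grey line is the mean of the 10 lines. Every panel spans the same log2 width, so Cdh1 appears as a narrow column while Cdh2, Vim, Zeb2 and Twist1 spread out.

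Cdh1 encodes E-cadherin, which joins neighbouring epithelial and pluripotent cells. Its level was 4.44, 4.04 and 4.12 in the poor lines, 4.38 and 4.20 in the good lines, 4.45 and 4.24 in the high lines, and 4.33, 4.22 and 4.43 in the ESC lines, in the order in which the lines are named above. The 4 groups overlapped, and the whole range was 0.41, or 1.33-fold. The SD between lines was 0.143 against 0.105 between arrays of a line, and 7 of the 9 neighbouring pairs in the order of lines had overlapping arrays. Only 8.03% of all genes tested had a smaller SD between lines.

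Epcam encodes a surface adhesion protein of epithelia that is also carried by embryonic stem cells. It stood at 1.98, 0.78 and 2.31 in the poor lines, 1.77 and 1.42 in the good lines, 1.68 and 0.99 in the high lines, and 1.62, 1.84 and 1.07 in the ESC lines. The lowest 3 lines were the 3 whose names contain Oct4-GFP, an ESC, a poor and a high line, and the highest was KH2_OSKM. The range was 2.88-fold, and the SD between lines was 0.480 against 0.119 between arrays. The Epcam probe, on chr17:88048972-88049800 (mm9), covers a stretch of genome longer than its own 60 bases and so crosses an intron.

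Cdh2 encodes N-cadherin, the cadherin of mesenchymal and neural cells. Its level was 0.14, 0.62 and -1.25 in the poor lines, -1.22 and 1.07 in the good lines, -0.11 and -0.14 in the high lines, and 1.15, -1.05 and 0.34 in the ESC lines. KH2_OSKM, BC_2 OSKM and Nanog-GFP ESCs formed a low set, separated from the other 7 lines by a gap of 0.91. That low set held a poor line, a good line and an ESC line. A second Cdh2 probe gave the same order of lines closely (r = 0.993 over the 10 lines).

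Vim encodes vimentin, the intermediate filament protein of mesenchymal cells. It was at 5.32, 5.32 and 3.42 in the poor lines, 2.93 and 5.71 in the good lines, 5.47 and 4.60 in the high lines, and 5.49, 4.20 and 5.36 in the ESC lines. BC_2 OSKM and KH2_OSKM were lowest, Nanog-GFP ESCs came next, and a gap of 0.78 separated the lowest 2 from the rest. The range was 6.86-fold. The SD between lines, 0.966, was 11.9 times that between arrays of a line, 0.081, where the median of this ratio over all genes was 1.85.

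Fn1 encodes fibronectin, a matrix protein that mesenchymal cells secrete. Its level was 6.64, 6.63 and 7.21 in the poor lines, 7.56 and 7.22 in the good lines, 7.49 and 7.08 in the high lines, and 6.96, 7.33 and 6.99 in the ESC lines. The highest line, BC_2 OSKM, was the lowest for Vim, and 2 of the poor lines were lowest. The range was 1.91-fold, narrower than that of Vim, yet the SD between lines was 10.8 times that between arrays.

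Among the factors, Snai1 (Snail) represses Cdh1 in development. It stood at -0.83, -0.55 and -0.38 in the poor lines, -0.83 and -0.85 in the good lines, 0.13 and -1.01 in the high lines, and -1.16, -1.74 and -0.85 in the ESC lines. Nanog-GFP SNEL#2 was highest and Nanog-GFP ESCs lowest. All poor and good lines lay above all ESC lines, but BC_2 OSKM, Nanog-GFP OSKM#2, Nanog-GFP SNEL#3 and Oct4-GFP ESCs were neighbours whose arrays overlapped.

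Snai2 (Slug), the relative of Snail active in neural crest, was at -2.31, -1.55 and -2.84 in the poor lines, -3.04 and -2.18 in the good lines, -1.99 and -1.95 in the high lines, and -1.93, -2.24 and -1.72 in the ESC lines. BC_2 OSKM and KH2_OSKM were again lowest, 0.53 below the next line. Zeb1, a zinc-finger repressor of epithelial genes, was at 0.50, 1.21 and 0.26 in the poor lines, 0.93 and 0.60 in the good lines, 0.78 and 0.80 in the high lines, and 0.70, 0.79 and 0.93 in the ESC lines. Its poor lines held both the highest line, Oct4-GFP OSKM#2, and the lowest, KH2_OSKM, 1.93-fold apart.

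Zeb2, the relative of Zeb1, was dim. It was measured at -5.31, -5.00 and -7.28 in the poor lines, -6.22 and -6.23 in the good lines, -5.60 and -6.25 in the high lines, and -4.36, -4.91 and -5.52 in the ESC lines. All 6 ESC arrays were well above background, against 4 of 14 iPSC arrays, so most iPSC levels are signals below what the arrays could detect and the true level may be higher. With each dim array at its detection bound, meaning the lowest signal there that was well above background, or its own signal if brighter, KH2_OSKM stood at -5.63 and Nanog-GFP SNEL#3 at -4.67, and the order of the dim lines is not known. A second Zeb2 probe, well above background on 1 of 20 arrays, did not follow the first (r = -0.514) and gave a difference of the opposite sign between iPSC and ESC lines, 0.20 against -1.05.

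Twist1, a basic helix-loop-helix factor of mesoderm and neural crest, had the widest measured range of the 10 genes, 3.27. Its level was -4.05, -3.61 and -2.88 in the poor lines, -3.71 and -6.15 in the good lines, -5.86 and -3.50 in the high lines, and -4.36, -3.34 and -4.23 in the ESC lines. Nanog-GFP SNEL#3 and Nanog-GFP SNEL#2 were the lowest of all lines and the only ones below -4.36, with 0 of 2 and 1 of 2 arrays well above background. With dim arrays at their bounds these 2 lines stood at -4.67 and -5.07 and the range was 2.19, narrower than that of Vim, 2.78. The third SNEL line, Oct4-GFP SNEL#1, was among the highest. As a mean of both arrays, the share of probes well above background was also lowest in these 2 lines, 50.1% and 57.3%. Its part in the result was not tested.

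The question the grades raise is whether better lines sit nearer to ESC lines. A call required an adjusted p under 0.05 in limma's moderated test on line means, adjusted over all genes tested with the Benjamini-Hochberg method. None of the 10 genes passed in any of 6 comparisons. Between poor and ESC lines (3 against 3), 0 of 10 passed and 0.0% of all genes did. There 0 of the 10 had an unadjusted p under 0.05, against 9.73% of all genes, and 1, Snai1, had lines that did not overlap, against 17.8%. Snai1 was -0.59 ± 0.23 (SD, n = 3) in poor and -1.25 ± 0.45 (SD, n = 3) in ESC lines, a difference of 0.66 ± 0.33 (SE; limma adjusted p = 0.594). The other 9 genes differed by -0.93 to 0.46, and beyond their standard errors only for Fn1, -0.27, and Zeb2, -0.93, with 3 of 6 poor arrays well above background for Zeb2 (-0.38 at the bounds).

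Between good and ESC lines (2 against 3), 0 of 10 genes passed (0.0% of all genes), 0 had an unadjusted p under 0.05 (6.16%), and 2, Snai1 and Zeb2, had measured lines that did not overlap (20.8%). For Zeb2 no good array was well above background, and with these arrays at their bounds its mean was 1.26-fold below that of the ESC lines. The second Zeb2 probe differed by 0.28, in the other direction. For the first probe the difference ranged from -1.59 to -0.11 over the alternatives in processing and lines. Measured means of the first probe were -6.22 ± 0.01 (SD, n = 2) and -4.93 ± 0.58 (SD, n = 3), with limma's adjusted p = 0.897. The bound sets the ESC mean against the lowest signal well above background on each good array, or the probe's own signal where higher, and at these bounds the good and ESC lines overlap. Twist1, with 2 of 4 good arrays well above background, was measured 0.95 ± 0.87 (SE) below the ESC lines (-0.22 at the bounds), a value that rested on Nanog-GFP SNEL#3, since without that line BC_2 OSKM stood 0.26 above them (limma adjusted p = 0.929).

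Between high and ESC lines (2 against 3), 0 of 10 genes passed (0.0%), 0 had an unadjusted p under 0.05 (5.85%) and 1, Zeb2, had measured lines that did not overlap (21.0%). For Zeb2, 1 of 4 high arrays was well above background, the measured difference was -0.998, and at the bounds it was -0.31 with overlapping lines. Snai1 was -0.44 ± 0.81 (SD, n = 2) in high and -1.25 ± 0.45 (SD, n = 3) in ESC lines, a difference of 0.81 ± 0.37 (SE; limma adjusted p = 0.85), and Oct4-GFP SNEL#1 lay inside the ESC range. Vim differed by 0.02 ± 0.90 (SE), with a 95% interval from -2.06 to 2.10, so a 4-fold difference either way is inside the interval. Cdh1 differed by 0.02 ± 0.18 (SE), with an interval from -0.39 to 0.44.

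Across all 7 iPSC and 3 ESC lines, 0 of 10 genes passed (0.0%), 0 had an unadjusted p under 0.05 (9.36%) and 0 did not overlap (4.3%). Snai1 was 0.63 ± 0.28 (SE) above the ESC lines (limma adjusted p = 0.55). The measured difference of Zeb2 was -1.05 (limma adjusted p = 0.583), but with 10 of 14 iPSC arrays not well above background it was -0.35 at the bounds. The other 8 genes were within their errors.

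Between the 4 good and high lines and the 3 poor lines, 0 of 10 genes passed (0.0%), 1 had an unadjusted p under 0.05 (5.14%) and 0 did not overlap (5.88%). That gene was Fn1, at 7.34 ± 0.23 (SD, n = 4) against 6.83 ± 0.33 (SD, n = 3), a difference of 0.51 ± 0.21 (SE; limma unadjusted p = 0.0415, adjusted p = 0.929). KH2_OSKM, a poor line, lay inside the range of the better lines.

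Between the 3 SNEL and 4 OSKM iPSC lines, 0 of 10 genes passed (0.00736% of all genes, or 2 genes), 1 had an unadjusted p under 0.05 (9.39%) and 0 did not overlap (7.49%). That gene was Twist1, at -5.17 ± 1.45 (SD, n = 3) against -3.56 ± 0.49 (SD, n = 4), a difference of -1.61 ± 0.61 (SE; limma unadjusted p = 0.0267, adjusted p = 0.513). Without Oct4-GFP SNEL#1 the difference was -2.44 and passed (adjusted p = 0.0341), with 1 of the 4 arrays left on the SNEL side well above background. That fit called 344 genes, 1.27% of all. With all lines and dim arrays at their bounds the difference was -0.85. Vim was 1.01 ± 0.65 (SE) and Cdh2 0.70 ± 0.64 (SE) above the OSKM lines, with adjusted p = 0.627 and 0.723.

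The median absolute difference of the 10 genes, with that over all genes in brackets, was 0.29 (0.22) between poor and ESC lines, 0.36 (0.21) between good and ESC lines and 0.18 (0.22) between high and ESC lines. It was 0.28 (0.18) between all iPSC and ESC lines, 0.12 (0.19) between better and poor lines and 0.30 (0.22) between SNEL and OSKM lines. These medians use measured levels, dim ones included. The ESC lines are shared by the comparisons with ESC, which are therefore not independent.

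**Figure D2:**
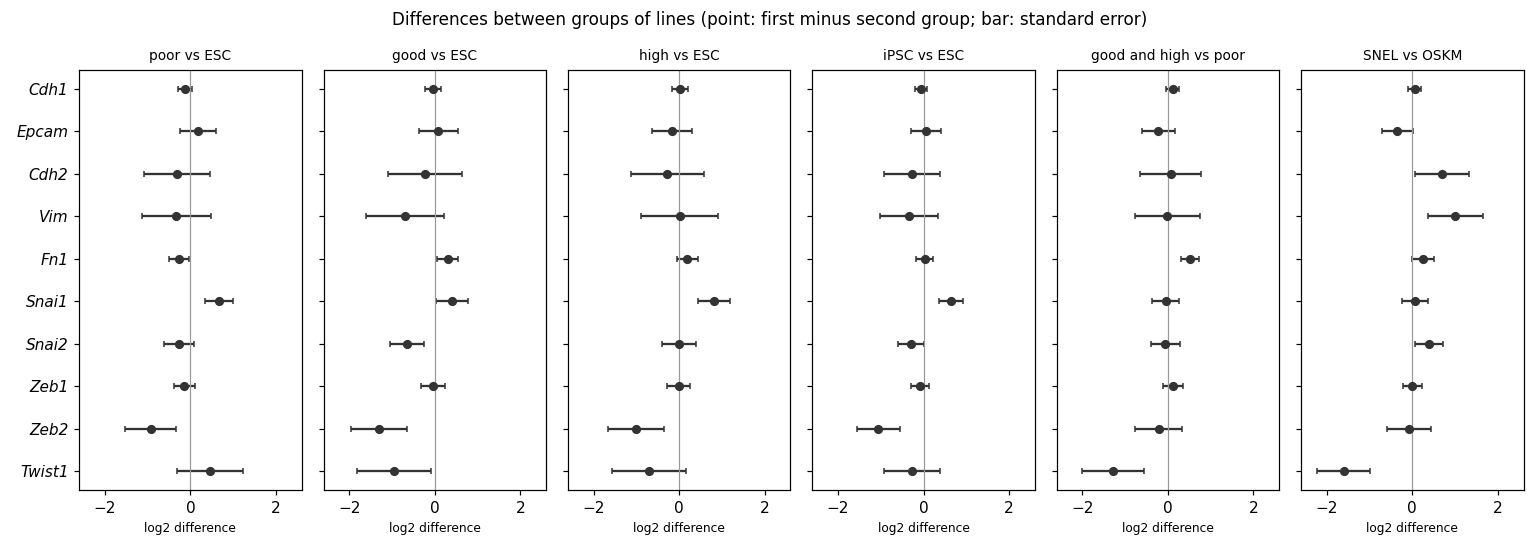
Difference in log2 level of each gene in the 6 comparisons, the first named group minus the second. Points are differences between means of line means and bars are limma's standard errors. Bars are long for Cdh2, Vim, Zeb2 and Twist1 and short for Cdh1 and Zeb1, and none of the 60 differences passed an adjusted p under 0.05.

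The contrast between epithelial and mesenchymal genes was taken per line as the mean of Cdh1 and Epcam minus the mean of Cdh2, Vim and Fn1, each gene first centred on its mean over the lines. It describes the lines and was not tested. Its value was 0.21, -0.75 and 1.12 in the poor lines, 1.02 and -0.82 in the good lines, -0.18 and -0.19 in the high lines, and -0.52, 0.57 and -0.45 in the ESC lines. KH2_OSKM and BC_2 OSKM had the highest values and Nanog-GFP SNEL#3 and Oct4-GFP OSKM#2 the lowest, so each end held a poor and a good line. The contrast speaks for its 5 genes and not for mesenchymal genes at large. Over the wider mesenchymal list, members left out, the mean centred level was lowest in Nanog-GFP SNEL#3, at -1.18, and -0.69 in Oct4-GFP OSKM#2, and in Nanog-GFP SNEL#3 22 of the list's 32 measured genes were above background. Over this list the high line Nanog-GFP SNEL#2, at -0.32, lay below the ESC lines, at 0.44 to 0.95, and Oct4-GFP SNEL#1 within their range. In the contrast of the 5 genes both high lines lay within the ESC range. The mean of the contrast was 0.40 ± 0.87 (SD, n = 4) in OSKM and -0.40 ± 0.37 (SD, n = 3) in SNEL lines. Vim and Cdh2 carry most of its variation, with SDs between lines of 0.966 and 0.890 against 0.143 for Cdh1.

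**Figure D3:**
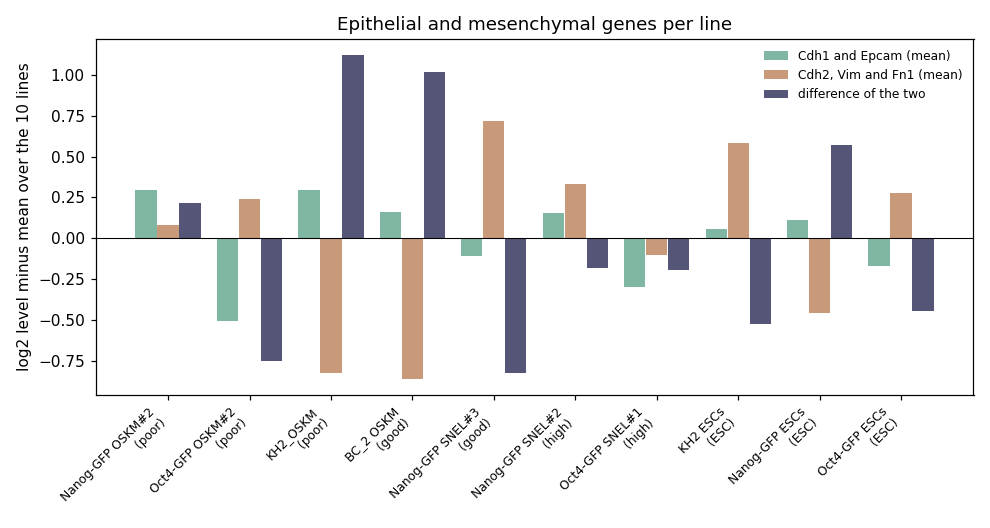
For each line, the mean centred log2 level of Cdh1 and Epcam, that of Cdh2, Vim and Fn1, and the difference between them. The difference is highest in KH2_OSKM (1.12) and BC_2 OSKM (1.02) and lowest in Nanog-GFP SNEL#3 (-0.82), and in the first 2 of these the mesenchymal bars are the longer ones.

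How the genes varied with each other is described over the 10 line means, which share the arrays and their scaling. Cdh2 and Vim went together (Pearson r = 0.895, Spearman rho = 0.891), also without the 2 lines farthest from the median (r = 0.841). Vim and Snai2 had r = 0.821, but 0.219 without those 2 lines, so that relation rests on them. Epcam ran against Zeb1 (r = -0.782, and -0.695 without 2 lines) and against Snai2 (r = -0.773, and -0.693). Fn1, although mesenchymal by class, had r = -0.512 with Vim (rho = -0.285, and r = -0.206 without 2 lines).

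The genes most like each member were found by Pearson r over the 10 line means among all genes tested. For Vim they were D7Wsu130e (r = 0.986), Lgals3 (0.983) and Ap4s1 (0.982), and for Cdh2 Ptgs1 (0.973), Tut1 (0.968) and Smyd5 (0.965). Twist1 was most like Ppp1r3c (0.977), Lhx2 (0.975) and Atp4a (0.972), and Epcam most like Sdcbp2 (0.938), Dusp19 (0.904) and Odf2l (0.901). For Cdh1 the highest were Olfr821 (0.902), Hao1 (0.897) and Gm15131 (0.870), for Snai2 an unnamed transcript, Gucd1 (0.952) and Pomgnt1 (0.943), and for Zeb2 Leo1 (0.928), Zfp326 (0.920) and Frmd5 (0.904). Fn1 was most like Gm8304 (0.976), an unnamed transcript and Gm7634 (0.957), Zeb1 most like Gm13487 (0.908), Brip1 (0.890) and Foxn2 (0.882), and Snai1 most like 2 unnamed transcripts and Prss1 (0.939). With so many genes to choose from and 10 points, high values arise easily, and they are a description.

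Wider lists placed the 10 genes among others of their kind, and no list member passed in any comparison when line means of all 10 lines were tested. Without Oct4-GFP SNEL#1, 344 genes (1.27%) passed between SNEL and OSKM lines. Among them were 2 epithelial genes, 1 mesenchymal gene, 2 regulators, 1 primitive endoderm marker and 2 trophoblast markers. With single arrays as the unit and the line as a random block, 40 genes (0.147%) passed between poor and ESC lines. Among them were 6 mesenchymal genes and 5 fibroblast markers. When the slide was a block as well, they were 4 and 3 among 11 genes (0.0405%). The 2 lists share 12 genes, so a gene can be counted in both. Of 39 epithelial genes measured, 15 were higher and 24 lower in poor lines than in ESC, the median being -0.09 against -0.04 over all genes, and the medians of the other comparisons lay between -0.02 and 0.02. Grhl2, a factor that maintains epithelial identity, was at -1.94 ± 0.35 (SD, n = 3) in SNEL and 0.17 ± 1.27 (SD, n = 4) in OSKM lines, a difference of -2.11 ± 0.63 (SE; limma adjusted p = 0.512). Ocln, which encodes the tight junction protein occludin, differed by -1.64 ± 0.44 (SE; limma adjusted p = 0.475) in the same comparison.

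Of 32 mesenchymal genes measured, 12 were higher and 20 lower in poor than in ESC lines (median -0.29), and 6 were higher and 26 lower in good than in ESC lines (median -0.85). Col3a1, a fibrillar collagen of connective tissue, was at -4.96 ± 0.83 (SD, n = 3) in poor and -0.34 ± 0.56 (SD, n = 3) in ESC lines (limma adjusted p = 0.192). These counts move with fibroblast markers, 12 of which are in the same list. Of 15 fibroblast markers measured, 13 were lower in poor and 15 lower in good lines than in ESC, the medians being -2.20 and -2.14, and their summed level (log2) was 1.29 to 2.04 in poor, 0.85 to 1.81 in good, 1.50 to 3.48 in high and 2.92 to 3.93 in ESC lines. Twist2 was left out because it was not well above background on 4 or more of the 20 arrays. Without the shared genes, 10 of 20 mesenchymal genes were higher and 10 lower in poor than in ESC lines (median 0.01), and 6 higher and 14 lower in good lines (median -0.49). Vim and Cdh2 showed little relation to the fibroblast markers over the 10 lines (r = -0.066 and -0.054). Without KH2 ESCs and Oct4-GFP SNEL#1 r was -0.249 for Vim and -0.455 for Cdh2.

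Of 29 regulators measured, 10 were higher and 19 lower in poor than in ESC lines (median -0.12), and 18 were higher and 11 lower in SNEL than in OSKM lines (median 0.07). Smad7, an inhibitor of TGF-beta signalling, was at 1.36 ± 0.21 (SD, n = 3) in SNEL and 0.12 ± 0.38 (SD, n = 4) in OSKM lines, a difference of 1.24 ± 0.22 (SE; limma adjusted p = 0.47). Prrx1, a mesenchymal homeobox factor that is also a fibroblast marker, was at -7.16 ± 1.05 (SD, n = 7) in iPSC and -5.19 ± 0.43 (SD, n = 3) in ESC lines (limma adjusted p = 0.339), and 2 of 14 iPSC arrays were well above background.

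Markers of other states moved with Vim and Twist1. The mean of 8 primed epiblast markers, genes of the later, post-implantation pluripotent state such as Dnmt3b and Otx2, had r = 0.873 with Vim and 0.782 with Cdh2 over the 10 lines. Dnmt3b, a DNA methyltransferase, was at 2.45 in KH2_OSKM and 1.99 in BC_2 OSKM, the lines lowest for Vim, and between 3.05 and 5.65 in the other 8. Without these 2 lines r of the list with Vim was 0.502. Not all markers of the list followed Dnmt3b. Otx2 was lowest in BC_2 OSKM, at 0.71, but at 2.66 in KH2_OSKM, above 1.61 in KH2 ESCs. Pou3f1 was lowest in Nanog-GFP SNEL#2, at -1.55, a line high for Vim. The mean of 15 primitive endoderm markers had r = 0.940 with Twist1, and 0.674 without Nanog-GFP SNEL#2 and Nanog-GFP SNEL#3. In these 2 lines the mean centred level of the list was -0.62 and -0.72, against -0.07 to 0.46 in the other 8. Single markers went both ways: the endoderm factor Sox17 was at -4.55 and -5.52 there and at -4.46 in KH2 ESCs, while Sox7 was highest in Nanog-GFP SNEL#3, at -2.02. Afp and Ttr, genes of later visceral endoderm, were left out because they were not well above background on 4 or more of the 20 arrays. Other lists moved with the 2 genes as well. Twist1 had r = 0.798 with the mean of 8 trophoblast markers, and 0.910 without Nanog-GFP OSKM#2 and Nanog-GFP SNEL#3. Vim had r = -0.826 with the epithelial list, 0.785 with neural markers and -0.740 with trophoblast markers. Without the 2 extreme lines of each list these were -0.548, 0.542 and -0.717. The part of all these markers in the results was not tested.

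**Figure D4:**
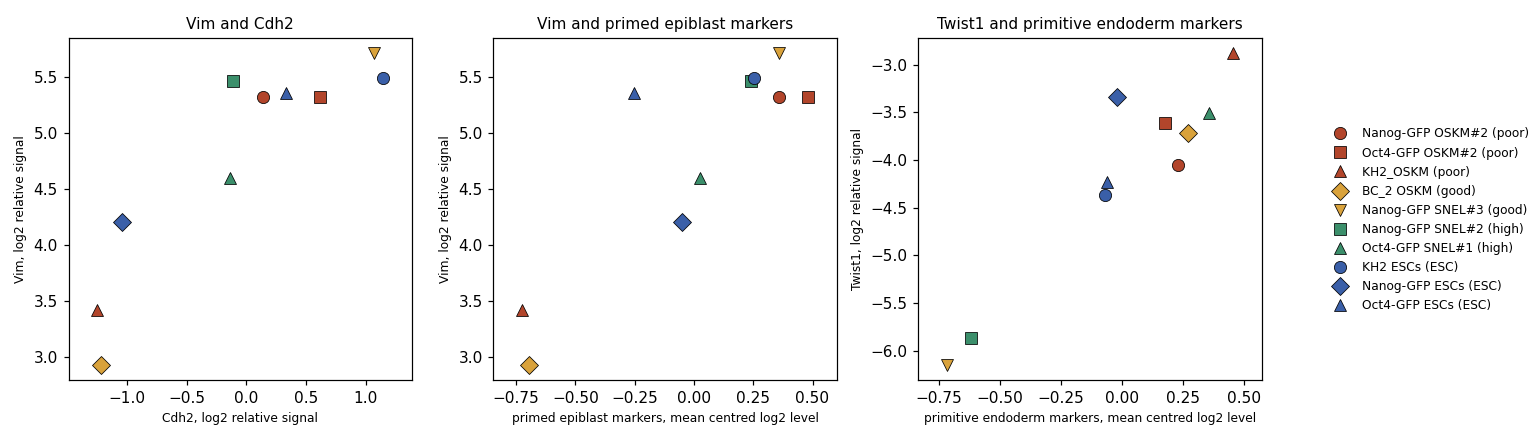
Each symbol is 1 line, coloured by grade, with log2 relative signal on the vertical axis. Vim is higher where Cdh2 is higher (r = 0.895) and where the mean of the primed epiblast markers is higher (r = 0.873), with KH2_OSKM and BC_2 OSKM at the lower left, and Twist1 where the primitive endoderm markers are higher (r = 0.940), with Nanog-GFP SNEL#2 and Nanog-GFP SNEL#3 apart from the other 8 lines.

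For 6 iPSC lines an ESC line of the same name was at hand, and each was set against it, a comparison added after the values had been seen and left untested because each name has 1 ESC line. Vim was 1.12, 1.51 and 1.26 above Nanog-GFP ESCs in Nanog-GFP OSKM#2, SNEL#3 and SNEL#2, and Cdh2 was 1.18, 2.11 and 0.93 above them. In KH2_OSKM Vim was 2.07 and Cdh2 2.40 below KH2 ESCs. Nanog-GFP ESCs are low and KH2 ESCs high for both genes, so the ESC line decides much of each difference.

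Twist1 ran the other way. It was 0.72 below Nanog-GFP ESCs in Nanog-GFP OSKM#2. In SNEL#3 and SNEL#2 the measured differences were -2.81 and -2.53, and -1.34 and -1.73 at the bounds, since 0 of 2 and 1 of 2 arrays were well above background. It was 1.48 above KH2 ESCs in KH2_OSKM. Snai1 was above the ESC line of its name in 5 of 6 iPSC lines, by 0.31 to 1.87, and 0.16 below it in Oct4-GFP SNEL#1. All Nanog-GFP iPSC lines were set against Nanog-GFP ESCs, the lowest of all lines for Snai1, at -1.74. Cdh1 differed by at most 0.39 in any of the 6.

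**Figure D5:**
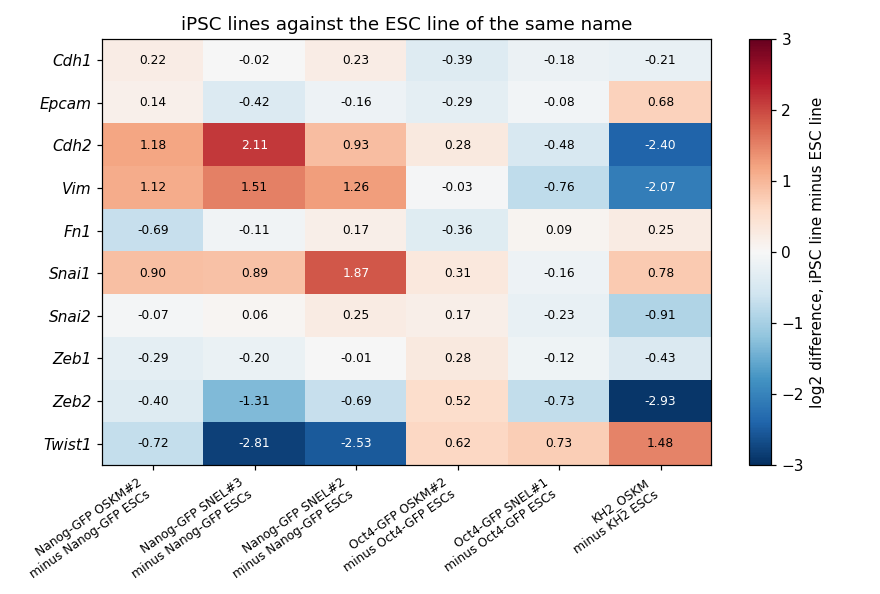
Log2 difference of each gene between each of 6 iPSC lines and the ESC line of the same name, with red for higher and blue for lower in the iPSC line. Cdh2 and Vim are red in the 3 Nanog-GFP lines and blue in KH2_OSKM, Twist1 has the opposite colours there, and Cdh1 is pale throughout.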

How the data were processed

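Each array's signal is an intensity, background-subtracted and spatially detrended by Feature Extraction 10.1.1.1 on array design 028005 (mm9), per the file headers. The authors' deposited value table holds log2 values and was used as an alternative. The submitters' processing notes name limma, without a version. Control spots were left out, spots of a probe averaged, and log2 signals set relative to each array's 75th percentile. The filter kept 38756 probes (27161 genes) that were well above background on 4 or more of the 20 arrays, and the brightest probe represented a gene. Line means (2 arrays each) were tested with limma 3.58.1 in R 4.3.3, with 1 model over 4 grades and 1 over SNEL, OSKM and ESC lines, and Benjamini-Hochberg adjustment over all genes. The fits were tested on simulated data. Named are all 10 members, for the lists examples among the 2 genes of smallest unadjusted p per list and comparison, and for each member the 3 most similar genes. Dnmt3b, Otx2, Pou3f1, Sox17 and Sox7 were named after their values were seen. Members and lists were chosen with earlier results of these data known. Precision is limited by the number of lines.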

Additional observations from a re-analysis of the deposited data

Results flagged for a closer look

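Results for 3 genes stood out because iPSC lines moved one way against the ESC line of one name and the opposite way against that of another. These differences were not tested, since each name has 1 ESC line. Cdh2 was at -2.40 relative to the ESC line for the name KH2 (1 iPSC line) and on average 1.41 for Nanog-GFP (3 iPSC lines), and Vim was at -2.07 and 1.30. Twist1 was at 1.48 for KH2, -2.02 for Nanog-GFP and 0.68 for Oct4-GFP (2 iPSC lines), where 2 of the 3 Nanog-GFP lines had 1 or no array well above background, so that this mean rests on signals below detection. A search for a line far from the others flagged 0 of the 22 groups of lines large enough for it. That count does not show that the lines of a grade were alike. For Vim, KH2_OSKM was at 3.42 and the other poor lines were at 5.32.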

How the results depend on the processing

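The count of members called stayed at 0 in 113 of 114 alternative results. The exception was SNEL against OSKM without Oct4-GFP SNEL#1, where 1 gene, Twist1, passed among 344 called (1.27% of all genes), so the range when 1 line was left out was 0 to 1. The contrast between epithelial and mesenchymal genes, good against ESC lines, ranged from -0.69 without BC_2 OSKM to 1.15 without Nanog-GFP SNEL#3, against 0.23 with all lines. The difference of Twist1 between good and ESC lines reversed to 0.26 without Nanog-GFP SNEL#3 and was -2.17 without BC_2 OSKM, each of which leaves 1 good line, assumed to vary like the other groups. Normexp background correction moved the median of all genes between SNEL and OSKM lines from -0.01 to 0.10. The arrays of a line share replicate numbers 1 and 2 with those of other lines. Deviations of same-numbered arrays correlated between -0.096 and 0.513 over 45 pairs, with a median of 0.168. The replicate number was left out of the main fit, and what same-numbered arrays share was not tested. With a replicate block, 0 members were called in each comparison, and Twist1 between SNEL and OSKM lines kept -1.61 (limma adjusted p = 0.265). Over all genes, calls numbered 26 against 0 between poor and ESC lines and 46 against 2 between SNEL and OSKM lines with that block, and 40 and 83 with single arrays and the line as a random block. List genes were among them, and a gene can be in both lists. With the replicate block 5 mesenchymal genes and 3 fibroblast markers were called between poor and ESC lines, among 26 genes (0.0957%). They were 2 and 1 among 5 genes (0.0184%) between good and ESC lines, and 4 and 3 among 19 (0.07%) between iPSC and ESC lines. The mesenchymal list's median between poor and ESC lines ranged from -0.44 to 0.08 over the alternatives, and between high and ESC lines from -0.99 to 0.14. With dim arrays at their detection bounds, 3 of 12 differences of Zeb2 and Twist1 changed sign. These bounds and list settings were chosen after seeing the data. With 2 or 3 lines a group, and Twist1 and Zeb2 near background, small differences were not detectable.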
